A study of Mus musculus with 9 samples.

Results

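Histone methyltransferases and demethylases were followed through the knockdown of Hdac1 with Hdac2, or of Sin3a, in mouse embryos before implantation. The genes were taken by name: every symbol that begins with Kmt2, Kmt5, Kdm, Setd, Prdm, Ehmt, Suv39h, Suv420h, Nsd, Whsc1, Dot1l, Prmt, Jmjd or Phf8, leaving out 2 genes, Kdm1a and Kdm5d. This gave 71 of the 20087 named genes in the table. The annotation behind the table uses some older symbols, so Setd8 is Kmt5a, Suv420h1 is Kmt5b, Suv420h2 is Kmt5c, Whsc1 is Nsd2, Whsc1l1 is Nsd3 and Prmt10 is Prmt9. The name rule also takes Nsdhl, an enzyme of cholesterol synthesis and not of histones, and it takes proteins such as Setd3 and Jmjd6 whose main substrates are not histones.

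RNA was sequenced from B6D2F1 embryos that had been injected at the zygote stage with small interfering RNA (siRNA, which lowers the messenger RNA it matches). The control embryos (NC) received a nonspecific siRNA and are labelled wild type, the second group received siRNA against Hdac1 and Hdac2 together (Hdac1/2 cKD, for co-knockdown), and the last received siRNA against Sin3a (Sin3a KD). All embryos were collected at E2.75, about the morula stage, and each group has 3 libraries of 60 pooled embryos. Hdac1 and Hdac2 are histone deacetylases and Sin3a is the scaffold of a corepressor complex that carries them. The series' title asks how the roles of both deacetylases overlap in lineage development and DNA methylation. A knockdown leaves part of the messenger RNA in place: Hdac1 and Hdac2 stood at 16.9% and 13.3% of the NC mean in Hdac1/2 cKD. In Sin3a KD, Sin3a stood at 29.0% of the NC mean, and Hdac1, which was not targeted there, stood at 34.3%.

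Methyl groups on histones are written by SET-domain enzymes (and by Dot1l, which has no SET domain) on lysine and by the Prmt enzymes on arginine. They are removed from lysine by the amine oxidases Kdm1a and Kdm1b and by the Jumonji (JmjC) demethylases. Methylation of H3K4 (lysine 4 of histone H3) marks promoters and enhancers, that of H3K36 and H3K79 marks transcribed gene bodies, and that of H3K9, H3K27 and H4K20 is tied to repression and compaction. After fertilisation, the broad H3K4 methylation inherited from the oocyte is removed and the parental genomes carry unequal H3K9 and H3K27 methylation. Many JmjC and SET proteins work in the same complexes as histone deacetylases.

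Values are normalised counts, that is, reads per gene divided by a factor that sets the libraries on a common scale; group values are mean ± SD (n = 3). Tests were run for the 13343 genes that reached 10 normalised counts in 3 or more libraries, on log2(value + 1), which in general understates the change of low genes but can enlarge it where single libraries lie at or near 0. A gene is called when its adjusted p from limma (Benjamini-Hochberg over all tested genes) lies below 0.05. NC is shared by both knockdown comparisons, so they are not independent. Normalised counts added up to 11.9 to 13.5 M per library. The shallowest library was NC replicate 3, at an estimated 8.39 M reads against 10.2 to 16.9 M in the other libraries, and with 28.4% of genes listed at 0 against 13.2% to 23.4%. NC replicate 3 stood apart on the first principal component (-96.6, with the other NC libraries at -16.8 and -20.7), and it was the lowest NC library for 32 of the 63 tested members. The labels do not say that the 3 pools of a group were separate collections, so p-values measure the spread between these libraries only, which may be technical. The lane codes in the library descriptions differ between groups: they are 5, 2 and 3 for NC, 2, 2 and 3 for Hdac1/2 cKD, and 4, 3 and 3 for Sin3a KD.

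The 11 morula markers, from Pou5f1 to Cdx2, all passed the filter, and their summed value spanned 48831 to 53817 (NC), 34984 to 38175 (Hdac1/2 cKD) and 46589 to 50829 (Sin3a KD). In Hdac1/2 cKD 7 of the 11 fell and in Sin3a KD 3 fell, where 7.80% and 4.36% of all tested genes were called lower. Pou5f1 and Klf5 had the highest means, so the sums follow them most. Single markers ran from 15.0% (Cdx2) to 109% (Krt18) of the NC mean in Hdac1/2 cKD. In Sin3a KD they ran from 30.4% (Krt8) to 111% (Gata3). Of 9 cumulus and granulosa cell markers, 6 were in the table and 1 passed the filter, with sums of 7.77 to 27.1 (NC), 37.4 to 56.6 (Hdac1/2 cKD) and 33.9 to 54.9 (Sin3a KD). Among them Has2 was listed at 0 in 6 of the 9 libraries and Cyp19a1 in 7. The 1 that was tested, Foxl2, had means of 6.38 ± 2.10 (NC), 22.9 ± 13.8 (Hdac1/2 cKD) and 26.2 ± 13.8 (Sin3a KD). All its knockdown values lay above those of NC. Limma called it in neither knockdown against NC (log2 1.52 and 1.81), though its unadjusted p lay below 0.05 in each. The 9 oocyte transcripts summed to 249.2 to 343, 323 to 371 and 331 to 359.9 in the same order, and limma called none of the 8 that were tested against NC (0 at an unadjusted p below 0.05 in either knockdown). The part of these shifts in the results below was not tested. In pooled embryos, fewer cells of a type and less RNA per cell cannot be told apart.

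In the control embryos most of these genes were detected, at very different levels. Per kilobase of merged exons, which allows levels to be set beside each other between genes, 34 of the 71 members had an NC mean of at least 100 normalised counts, 23 lay between 10 and 100, and 14 lay below 10. The genes named here for their level were chosen after the values were seen. Prmt5, which makes symmetric dimethylarginine and is needed for pluripotent cells, stood highest at 1254 ± 82.3 per kb. It was followed by Ehmt2 (G9a, the main H3K9 dimethyltransferase) at 735 ± 116, the CpG-island-binding demethylase Kdm2b at 528 ± 42.1, the H3K36 trimethylating enzyme Setd2 at 520.0 ± 88.6 and Prmt1, the main asymmetric arginine methyltransferase, at 516 ± 25.4. The NC ranges of Kdm2b, Setd2 and Prmt1 overlapped, while every NC value of Prmt5 lay above every NC value of Ehmt2.

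Levels differed within each role. Among H3K4 methyltransferases the enhancer enzyme Kmt2c stood at 386 ± 58.9 per kb and Kmt2a (MLL1), which keeps Hox genes active in later development, at 3.78 ± 1.31. The PRDM genes, which encode zinc-finger proteins with a SET-like domain, had the lowest median of any role group with more than 1 gene, 4.32 per kb over 14 genes, although Prdm2 reached 234 ± 92.7. Of the H3K27 demethylases, Kdm6b stood at 387 ± 96.0 and its paralog Kdm6a at 107 ± 25.5. The 8 members that did not pass the filter (Kdm4d, Prmt8 and 6 of the PRDM family) had values from 0 to 30.2 in single libraries. Across the 63 tested members, the coefficient of variation over the NC libraries had a median of 18.8% and ran from 1.93% for Kdm3a to 112% for Setd7.

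**Figure D1:**
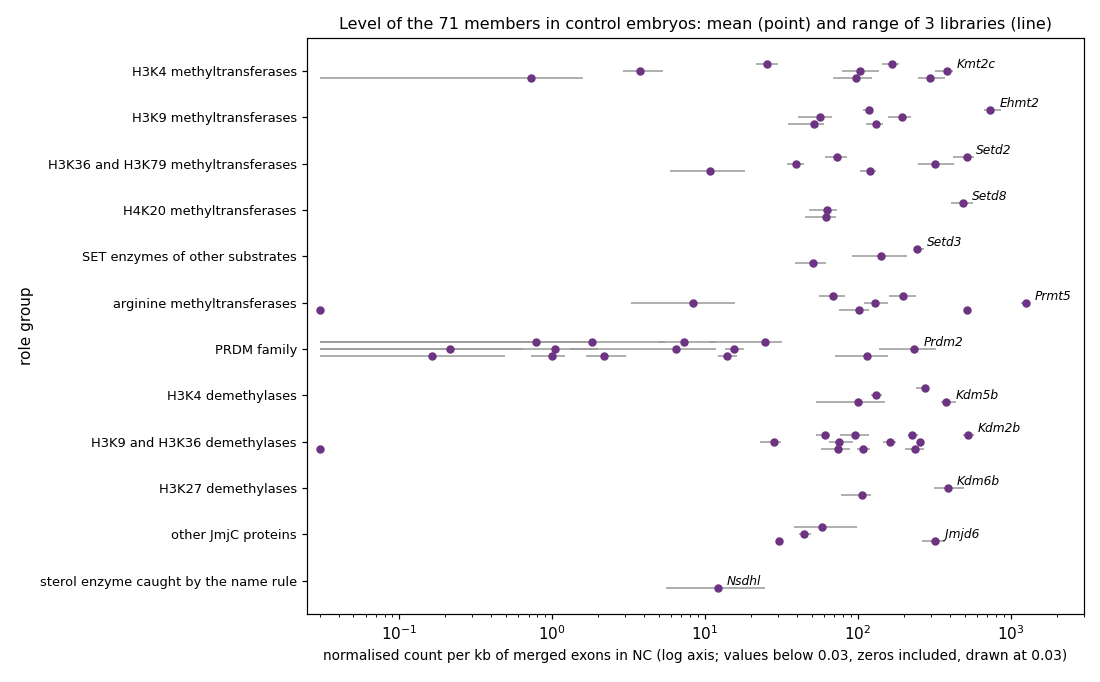
NC level of the 71 members on a log axis, in normalised counts per kb of merged exons, by role group; points are means and lines the range of 3 libraries. Prmt5 lies furthest to the right at 1254 per kb. The PRDM group has the lowest median, and the lowest single means are those of Kdm4d and Prmt8, at 0.

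With Hdac1 and Hdac2 knocked down, 4 members rose and 7 fell out of 63 tested. The risers were the H3K4 methyltransferase Kmt2a, the H3K36 methyltransferase Whsc1l1, the SET protein Setd5 and the demethylase Kdm2a. Those that fell were the JmjC demethylases Kdm2b, Kdm3a, Kdm4a and Phf8, the arginine methyltransferase Prmt6, Setd4 and Prdm10. Over all tested genes 7.81% were called higher and 7.80% lower in this comparison, so 4 and 7 of 63 members (6.35% and 11.1%) lie near the background. The median log2 fold change was -0.0038 over the members and 0.03 over all tested genes, and the median of its absolute value was 0.32 and 0.37. Of the 52 members that were not called, 40 had a 95% interval of the log2 fold change that lay within -1 and 1.

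Fewer members moved with Sin3a knocked down, 2 higher and 3 lower. Kdm6b and Kdm3a rose, while Prmt6, Prmt3 and Setd8 fell. The background was 3.60% of all tested genes called higher and 4.36% lower, against 3.17% and 4.76% of the members. The median log2 fold change was 0.04 over the members and 0.03 over all tested genes, with a median absolute value of 0.24 and 0.33. Of the 58 members not called, 46 had an interval within -1 and 1.

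The comparison of Hdac1/2 cKD with Sin3a KD tests directly where the knockdowns differ. In Hdac1/2 cKD 3 members were higher than in Sin3a KD (Kmt2a, Setd5 and Suv39h1) and 7 were lower (Kdm3a, Kdm4a, Kdm5b, Kdm6b, Kmt2c, Prmt5 and Setd4). Of all tested genes 8.49% were called higher and 8.78% lower, against 4.76% and 11.1% of the members. In all, 18 members were called in at least 1 of the 3 comparisons and 45 in none. The matching share of all tested genes was not computed, so this count has no background beside it. Prmt6 was called lower in both knockdowns against NC, and Kdm3a was lower in Hdac1/2 cKD and higher in Sin3a KD. The share of all tested genes with such paired calls was not computed either. The Kdm3a calls against NC and the Prmt6 call in Sin3a KD were lost in some alternative fits, given below.

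**Figure D2:**
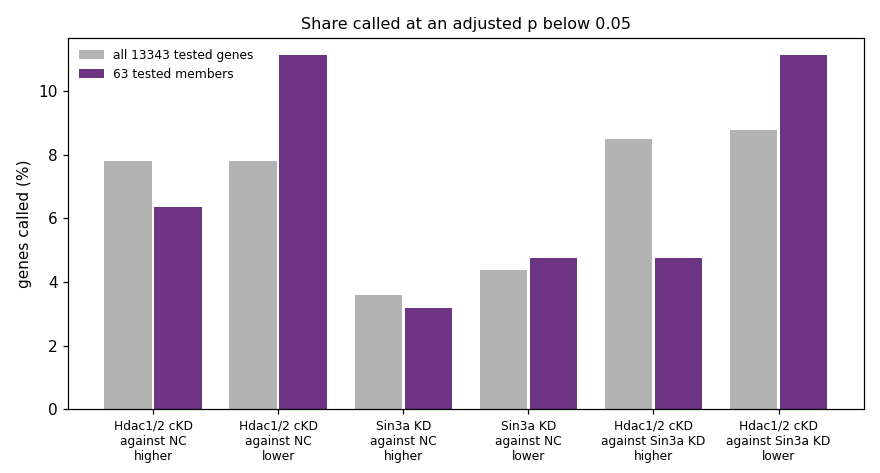
Share of genes called (%) in each comparison and direction, for all 13343 tested genes (grey bars) and the 63 tested members (purple bars). The pairs of bars lie close: the widest gaps are 4.76% of members against 8.49% of all genes, and 11.1% against 7.80%.

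The promoters of 4 members whose changes are described next are shown as RefSeq gives them for GRCm38.p6, each as the 250 bases before the annotated start, 5′ to 3′ on the gene's strand. They were picked as the strongest rise (Kmt2a), a pair of clear falls (Kdm4a and Prmt6) and the gene that went opposite ways (Kdm3a). Capitals mark the GC box GGGCGG and the CCAAT box CCAAT, or their reverse complements, which were searched on both strands; matches that overlap were each counted.
Kmt2a promoter: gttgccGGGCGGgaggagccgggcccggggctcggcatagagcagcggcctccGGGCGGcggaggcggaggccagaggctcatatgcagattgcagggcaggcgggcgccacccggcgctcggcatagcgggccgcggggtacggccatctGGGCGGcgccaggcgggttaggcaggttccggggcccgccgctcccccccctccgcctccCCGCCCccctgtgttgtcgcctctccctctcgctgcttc
Kdm4a promoter: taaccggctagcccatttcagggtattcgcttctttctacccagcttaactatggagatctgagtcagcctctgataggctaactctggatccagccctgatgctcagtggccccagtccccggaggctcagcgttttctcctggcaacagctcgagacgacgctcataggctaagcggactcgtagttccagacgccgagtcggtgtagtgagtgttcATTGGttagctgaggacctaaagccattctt
Prmt6 promoter: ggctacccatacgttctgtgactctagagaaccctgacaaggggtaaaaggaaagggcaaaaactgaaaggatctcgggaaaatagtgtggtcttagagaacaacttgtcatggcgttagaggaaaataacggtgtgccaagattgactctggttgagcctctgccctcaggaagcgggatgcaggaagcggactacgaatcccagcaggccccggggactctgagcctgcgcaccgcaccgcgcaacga
Kdm3a promoter: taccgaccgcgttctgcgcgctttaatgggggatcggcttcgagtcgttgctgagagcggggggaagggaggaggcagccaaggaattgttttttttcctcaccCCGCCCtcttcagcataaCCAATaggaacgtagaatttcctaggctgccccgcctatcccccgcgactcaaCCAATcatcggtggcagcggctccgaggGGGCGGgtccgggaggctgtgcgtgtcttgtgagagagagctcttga
The Kmt2a window (chr9:44881290-44881539, reverse strand) holds 4 GC boxes and 76.8% G and C. The Kdm4a window (chr4:118180044-118180293, reverse strand) holds 1 CCAAT box, read here as ATTGG, and no GC box. The Prmt6 window (chr3:110251000-110251249, reverse strand) holds neither. The Kdm3a window shown (chr6:71632918-71633167, reverse strand), at the most upstream of its starts in the table, holds 2 of each. Its other windows differ: chr6:71632687-71632936 holds 4 GC boxes and no CCAAT box, and chr6:71609140-71609389 holds neither. The table matched 56 of the 71 members, with 74 promoter windows, and 15 of the 18 called members; none was matched for Kdm2a, Kdm6b and Whsc1l1. A GC box was found in 64.9% of the member windows and in 32.7% of all 32851 windows of the table, which covers every kind of gene. A CCAAT box was found in 44.6% against 33.9% and the TATA box TATAAA in 4.05% against 12.4%. The E-box CACGTG stood in 8.11% against 6.02%. The median GC content was 61.6% in the member windows and 52.4% in all windows, and the median ratio of observed to expected CpG was 0.829 and 0.374.

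Of the 8 tested H3K4 methyltransferases, 1 rose in Hdac1/2 cKD, where 7.81% of all tested genes were called higher, and 7 were not called. None of the 8 was called in Sin3a KD by limma (0 at an unadjusted p below 0.05). Kmt2a (chromosome 9, 44803355 to 44881296, reverse strand, GRCm38) had 52.5, 48.3 and 88.0 normalised counts in the NC libraries, 271, 288 and 330.4 in Hdac1/2 cKD and 71.7, 103 and 113 in Sin3a KD. Every Hdac1/2 cKD library lay above every other library, while NC and Sin3a KD overlapped. The means were 62.9 ± 21.8 in NC and 297 ± 30.6 in Hdac1/2 cKD, a 4.71-fold difference (log2 2.27, SE 0.29, adjusted p = 0.000294). Within lane 2 the log2 difference was 2.51 and within lane 3 it was 1.90. In Sin3a KD the mean was 95.9 ± 21.5 and the change was not called (log2 0.63, adjusted p = 0.213), and the knockdowns differed from each other (log2 1.64, SE 0.29, adjusted p = 0.00197). Both calls were kept under every alternative fit.

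Kmt2c, which with Kmt2d monomethylates H3K4 at enhancers, had 8511, 8537 and 6456 in NC, 7258, 7138 and 5343 in Hdac1/2 cKD and 9442, 9404 and 8715 in Sin3a KD. Neither knockdown was called against NC (log2 -0.25 and 0.24, adjusted p = 0.224 and 0.292), yet all Hdac1/2 cKD values lay below all Sin3a KD values and that difference was called (log2 -0.49, SE 0.13, adjusted p = 0.0207). It was lost without Hdac1/2 cKD replicate 3 (adjusted p = 0.0918), Sin3a KD replicate 1 (0.0717) or replicate 2 (0.0610), and without trended robust variances (0.108). Without NC replicate 3, Kmt2c was called lower in Hdac1/2 cKD than in NC (adjusted p = 0.0496). Setd7, which also methylates many proteins other than histones, lay just outside the threshold in Hdac1/2 cKD and is named for that after its value was seen. Its values were 6.15, 17.3 and 0 in NC, 37.5, 37.4 and 35.0 in Hdac1/2 cKD and 22.0, 12.2 and 6.08 in Sin3a KD (log2 2.89, SE 0.93, adjusted p = 0.0504 against NC). The counts behind it are small and 1 NC library is at 0: the ratio of the group means is 4.70, less than the fitted log2 value gives.

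The COMPASS complexes hold the H3K4 methyltransferases together with core and targeting subunits. Of 11 such subunits tested, 3 rose, 1 fell and 7 were not called in Hdac1/2 cKD, where 7.81% of all tested genes were called higher and 7.80% lower. In Sin3a KD 2 fell and 9 were not called, where 4.36% of all tested genes were called lower. Men1 (menin, which tethers Kmt2a and Kmt2b to chromatin) had a mean of 1039 ± 47.8 against 409 ± 37.0 in NC (log2 1.35, SE 0.14, adjusted p = 6.70e-05). Psip1, which binds chromatin together with menin, stood at 814 ± 73.3 against 471 ± 71.7 (log2 0.79, SE 0.16, adjusted p = 0.00515). Ncoa6, a subunit of the Kmt2c and Kmt2d complexes, rose in Hdac1/2 cKD (log2 0.66, SE 0.19, adjusted p = 0.0329) and fell in Sin3a KD (log2 -0.69, SE 0.19, adjusted p = 0.0414), and the difference between the knockdowns was called (log2 1.35, SE 0.19, adjusted p = 0.000433). Wdr5, a core subunit of all COMPASS complexes, was called lower in both, with log2 -0.29 (adjusted p = 0.0311) and -0.29 (adjusted p = 0.0469). Partner genes were put through the same 17 alternative fits after their values were seen. The calls of Men1 and Psip1 in Hdac1/2 cKD, and of Ncoa6 between the knockdowns, were kept in all 17. The Ncoa6 rise in Hdac1/2 cKD was lost in 5, without NC replicate 2 (adjusted p = 0.0899) or Hdac1/2 cKD replicates 1 (0.125), 2 (0.0664) or 3 (0.0709) and with untrended variances (0.110). The Wdr5 fall in Hdac1/2 cKD was lost in 9, without NC replicates 1 (0.0883) or 3 (0.0509) or Hdac1/2 cKD replicates 1 (0.0777), 2 (0.0849) or 3 (0.115) among them. In Sin3a KD the Wdr5 call was lost in 14 of the 17 and the Ncoa6 call in 13, both without any 1 library other than NC replicate 2 (adjusted p of 0.0626 to 0.170 and 0.0530 to 0.161).

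Opposite to these writers, the 4 H3K4 demethylases were not called in either knockdown against NC by limma (0 in Hdac1/2 cKD and 2 in Sin3a KD at an unadjusted p below 0.05). Kdm5b, which removes H3K4 trimethylation and was the highest of them in NC per kb, had 5819, 7229 and 5817 in NC, 4811, 5449 and 5848 in Hdac1/2 cKD and 8159, 6913 and 8115 in Sin3a KD. The Hdac1/2 cKD values all lay below the Sin3a KD values, and this difference was called (log2 -0.53, SE 0.11, adjusted p = 0.00615). It was lost without trended robust variances (adjusted p = 0.0568) and with lane as a factor (0.0833). Without NC replicate 2, Kdm5b was called higher in Sin3a KD than in NC (adjusted p = 0.0333).

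Among the 6 H3K36 and H3K79 methyltransferases 2 rose in Hdac1/2 cKD, where 7.81% of all tested genes were called higher, and none was called lower. None of the 6 was called in Sin3a KD by limma (1 at an unadjusted p below 0.05). The median log2 fold change of the 6 was 0.44 in Hdac1/2 cKD and -0.03 in Sin3a KD, beside 0.03 for all tested genes in each. The sign differed among the 6 in Hdac1/2 cKD: Setd2, the highest of them per kb, had a log2 change of -0.33 (95% interval -0.60 to -0.05, adjusted p = 0.0991) and Dot1l one of -0.07 (adjusted p = 0.796). Setd5 (chromosome 6, 113077365 to 113153435, forward strand), a SET protein bound by corepressors whose own enzymatic activity is debated, had 1548, 1379 and 1116 in NC, 2221, 1932 and 1893 in Hdac1/2 cKD and 1216, 1167 and 1186 in Sin3a KD. The Hdac1/2 cKD libraries were all above the rest, and Sin3a KD lay within the NC range. Its mean went from 1348 ± 218 to 2015 ± 179 (log2 0.59, SE 0.13, adjusted p = 0.00768), and the difference from Sin3a KD was 0.76 on the log2 scale (adjusted p = 0.00140).

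Whsc1l1 (Nsd3, chromosome 8, 25601601 to 25719667, forward strand), which dimethylates H3K36, had 669, 730.1 and 566 in NC and 1047, 1017 and 969.5 in Hdac1/2 cKD, with no overlap (log2 0.63, SE 0.13, adjusted p = 0.00626). In Sin3a KD it had 928, 909 and 796, again above every NC value, but the change was not called (log2 0.43, adjusted p = 0.0674); it was called with every library scaled to the same total (0.0279) and without NC replicate 2 (0.0343). The Hdac1/2 cKD calls of Setd5 and Whsc1l1 and the Setd5 difference between knockdowns were kept in every alternative fit. Ash1l, an H3K36 methyltransferase whose name falls outside the rule, rose in Hdac1/2 cKD (log2 0.66, SE 0.19, adjusted p = 0.0343) and in Sin3a KD (log2 0.68, SE 0.19, adjusted p = 0.0472), the 1 gene called in each of those comparisons among 13 tested related enzymes outside the rule. The Ash1l call in Hdac1/2 cKD was lost in 7 of 17 alternative fits, without NC replicates 1 (0.106) or 3 (0.107) or Hdac1/2 cKD replicates 1 (0.130) or 2 (0.09999) among them. The call in Sin3a KD was lost in 13, without any 1 library other than NC replicate 2 (adjusted p of 0.0524 to 0.155) among them. Over all tested genes, 7.81% were called higher in Hdac1/2 cKD and 3.60% in Sin3a KD.

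The H3K9 methyltransferases, 6 tested, had no call against NC in either knockdown by limma (1 in each at an unadjusted p below 0.05). Ehmt2 had 4768, 3650.0 and 3679 in NC, 3553, 4006 and 3973 in Hdac1/2 cKD and 3325, 3227 and 3346 in Sin3a KD, with a 95% interval of its log2 change of -0.30 to 0.18 (Hdac1/2 cKD) and -0.52 to -0.04 (Sin3a KD). Setdb1, which silences retroviral repeats together with Trim28, had intervals of -0.26 to 0.30 and -0.30 to 0.26. Suv39h1, the enzyme of pericentromeric H3K9 trimethylation, had 627, 667 and 566 in NC, 1022, 732 and 789.6 in Hdac1/2 cKD and 593, 456 and 576 in Sin3a KD. Its Hdac1/2 cKD values were the highest of the 3 groups, with a called difference from Sin3a KD (log2 0.64, SE 0.16, adjusted p = 0.0157) but not from NC (log2 0.44, adjusted p = 0.0875, or 0.0435 with equal totals). The call was lost without Hdac1/2 cKD replicate 1 (adjusted p = 0.0821) or Sin3a KD replicate 2 (0.0675), without trended robust variances (0.0530) and with lane as a factor (0.146). An antisense gene, Gm14820, shares 14.6% of its exon bases, and reads of the pair cannot be told apart without strand.

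Of 10 cofactors of the H3K9 pathway, 1 was called higher in Hdac1/2 cKD and 2 lower in Sin3a KD, where 7.81% and 4.36% of all tested genes were. All 3 encode heterochromatin protein 1 (HP1), the reader of H3K9 methylation. Cbx1 (HP1 beta) stood at 1216 ± 79.3 against 592 ± 92.9 in NC (log2 1.05, SE 0.14, adjusted p = 0.000394). In Sin3a KD, Cbx5 (HP1 alpha) stood at 1224 ± 220.5 against 2012 ± 233 (log2 -0.73, SE 0.15, adjusted p = 0.0111) and Cbx3 (HP1 gamma) at 3509.6 ± 246 against 4353 ± 109 (log2 -0.31, SE 0.09, adjusted p = 0.0449). The Cbx1 call was kept in all 17 alternative fits. The Cbx5 call was lost without Sin3a KD replicate 1 (adjusted p = 0.0580), with untrended variances (0.0823) and with lane as a factor (0.0658). The Cbx3 call was lost in 13 of 17, without any 1 library other than Sin3a KD replicate 2 (0.0671 to 0.161) among them.

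Of the 11 tested H3K9 and H3K36 demethylases, 4 fell, 1 rose and 6 were not called in Hdac1/2 cKD, where 7.80% of all tested genes were called lower and 7.81% higher. In Sin3a KD 1 rose, where 3.60% of all tested genes did. Between the knockdowns 2 were lower in Hdac1/2 cKD than in Sin3a KD, as were 8.78% of all tested genes. Their median log2 fold change was -0.24 in Hdac1/2 cKD and -0.12 in Sin3a KD, beside 0.03 for all tested genes.

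Kdm4a (chromosome 4, 118136957 to 118180043, reverse strand), which demethylates trimethylated H3K9 and H3K36, had 1429.9, 1275 and 1233 in NC, 731, 801 and 743 in Hdac1/2 cKD and 962, 978 and 1090.4 in Sin3a KD. The 3 groups did not overlap, with NC highest, Sin3a KD between and Hdac1/2 cKD lowest. Its mean was 1313 ± 104 in NC and 758 ± 37.5 in Hdac1/2 cKD, or 57.8% of NC (log2 -0.79, SE 0.12, adjusted p = 0.000758), and within lanes 2 and 3 the log2 differences were -0.74 and -0.73. This call was kept in every alternative fit. In Sin3a KD the change was not called (log2 -0.38, adjusted p = 0.0680). The difference between the knockdowns was called (log2 -0.41, SE 0.12, adjusted p = 0.0285) but lost when any Hdac1/2 cKD or Sin3a KD library was left out (adjusted p of 0.0547 to 0.106), with no filter on low values (0.0550), without trended robust variances (0.0586) and with lane as a factor (0.103).

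Kdm3a (chromosome 6, 71588972 to 71632990, reverse strand), which removes mono- and dimethylation of H3K9, went in opposite directions. It had 2082, 2135 and 2056 in NC, 1586, 1906 and 1433 in Hdac1/2 cKD and 3279, 3215 and 3012 in Sin3a KD. All Hdac1/2 cKD libraries lay below the narrow NC range and all Sin3a KD libraries above it. Hdac1/2 cKD stood at 78.5% of the NC mean (log2 -0.36, SE 0.11, adjusted p = 0.0453) and Sin3a KD at 152% (log2 0.60, SE 0.11, adjusted p = 0.00796). The knockdowns differed from each other by -0.96 on the log2 scale (SE 0.11, adjusted p = 0.000119), a call kept in every alternative fit. The fall in Hdac1/2 cKD was not stable: without any 1 library other than Hdac1/2 cKD replicate 2 the adjusted p was 0.0571 to 0.187 (0.0831, 0.0815 and 0.0639 without NC replicates 1, 2 and 3, 0.129 and 0.187 without Hdac1/2 cKD replicates 1 and 3, and 0.0647, 0.0599 and 0.0571 without Sin3a KD replicates 1, 2 and 3). It was also lost with no filter on low values (0.0678), equal totals (0.137), no trended robust variances (0.126), only NC and Hdac1/2 cKD in the fit (0.0860) and lane as a factor (0.0712). The rise in Sin3a KD was kept without any 1 library and lost with untrended variances (0.0667) and with lane as a factor (0.0671).

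Kdm2b (chromosome 5, 122870665 to 122989823, reverse strand) binds unmethylated CpG islands and brings a Polycomb complex to them. It had 6221, 5697 and 5308 in NC, 4125, 4105 and 4105 in Hdac1/2 cKD and 5041, 5299 and 4656 in Sin3a KD. Hdac1/2 cKD stood below every other library and NC above every Sin3a KD value. Its mean fell from 5742 ± 458 to 4112 ± 11.3 in Hdac1/2 cKD, 71.6% of NC (log2 -0.48, SE 0.09, adjusted p = 0.00358), and this call was kept in every alternative fit. The difference from Sin3a KD lay just outside the threshold (log2 -0.28, adjusted p = 0.0509) and was called under 7 alternatives, the removal of any 1 NC library among them (adjusted p of 0.0259 to 0.0486). A predicted gene, Gm12397, holds 5.34% of the 31-base words of Kdm2b, and it had 40.4 to 210.04 normalised counts. The paralog Kdm2a, also a binder of CpG islands and an H3K36 demethylase, went the other way, from 766, 933 and 953 in NC to 1305, 1352 and 1093 in Hdac1/2 cKD, with 832, 1064 and 974 in Sin3a KD (log2 0.50, SE 0.14, adjusted p = 0.0289 in Hdac1/2 cKD). That call was lost without NC replicate 1 (adjusted p = 0.0976), Hdac1/2 cKD replicate 1 (0.0985) or replicate 2 (0.116), with untrended variances (0.0855) and with lane as a factor (0.115). Against Sin3a KD, Kdm2a was called with only those groups in the fit (0.0478, against 0.0791).

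Phf8, which removes dimethylation of H3K9 and monomethylation of H4K20 and lies on the X chromosome, had 713, 1111 and 863 in NC, 653, 441 and 408 in Hdac1/2 cKD and 650.2, 856 and 652 in Sin3a KD. All Hdac1/2 cKD values lay below all NC values (log2 -0.85, SE 0.21, adjusted p = 0.0142), and the call was lost without Hdac1/2 cKD replicate 2 (adjusted p = 0.0604) or replicate 3 (0.0660) and with untrended variances (0.0684). Against Sin3a KD it was not called (log2 -0.54, adjusted p = 0.0911, or 0.0325 without Hdac1/2 cKD replicate 1).

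Of the 2 H3K27 demethylases 1, Kdm6b, was called. It was higher in Sin3a KD than in NC, as were 3.60% of all tested genes. It was also lower in Hdac1/2 cKD than in Sin3a KD, as were 8.78% of all tested genes. Kdm6b (Jmjd3, chromosome 11, 69398508 to 69413675, reverse strand), which removes H3K27 trimethylation, had 2445, 3451 and 2187 in NC, 3543, 4188 and 3331 in Hdac1/2 cKD and 5772, 5048 and 6059 in Sin3a KD. Every Sin3a KD library lay above all others, and the upper 2 Hdac1/2 cKD libraries lay above the NC range. Its Sin3a KD mean, 5626 ± 521, was 2.09 times the NC mean of 2694 ± 668 (log2 1.09, SE 0.15, adjusted p = 0.00297), a call kept without any 1 library and lost with untrended variances (adjusted p = 0.0523). In Hdac1/2 cKD it lay just outside the threshold (log2 0.47, adjusted p = 0.0522), and it was called under 6 alternatives (adjusted p of 0.00364 without NC replicate 2 to 0.0498). The difference between knockdowns was -0.61 on the log2 scale (adjusted p = 0.0147). It was lost without Hdac1/2 cKD replicates 1 (0.0551) or 3 (0.0625) or Sin3a KD replicates 1 (0.0562) or 3 (0.0602), and with untrended variances (0.0847). Kdm6a (UTX) had 1018, 1021 and 649 in NC and was called in no comparison, with 95% intervals of -0.31 to 0.45 (Hdac1/2 cKD) and -0.23 to 0.53 (Sin3a KD).

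Of the 7 tested arginine methyltransferases, 1 fell in Hdac1/2 cKD and 2 fell in Sin3a KD. Over all tested genes, 7.80% and 4.36% were called lower in these comparisons. Prmt6 (chromosome 3, 110246109 to 110250998, reverse strand), which deposits asymmetric dimethylation at arginine 2 of H3, a mark that hinders H3K4 methylation, had 1005, 794 and 673 in NC, 395, 400.2 and 334 in Hdac1/2 cKD and 574, 467 and 413 in Sin3a KD. Both knockdowns lay wholly below NC. Hdac1/2 cKD stood at 45.7% of the NC mean (log2 -1.11, SE 0.18, adjusted p = 0.00128), kept in every alternative fit, and Sin3a KD at 58.8% (log2 -0.76, SE 0.18, adjusted p = 0.0223). The Sin3a KD call was lost without NC replicate 1 (adjusted p = 0.0876), Sin3a KD replicate 2 (0.0553) or replicate 3 (0.105), with untrended variances (0.0868) and with lane as a factor (0.143). The knockdowns were not called different from each other (log2 -0.35, 95% interval -0.74 to 0.04, adjusted p = 0.209). An antisense gene, C130013H08Rik, shares 23.5% of the Prmt6 exon bases.

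Prmt3, a cytoplasmic enzyme that methylates a ribosomal protein, had 744, 654 and 941 in NC, 674, 636 and 601 in Hdac1/2 cKD and 453, 542 and 424 in Sin3a KD. The Sin3a KD libraries were the lowest (log2 -0.71, SE 0.16, adjusted p = 0.0181), and the call was lost without NC replicate 3 (adjusted p = 0.0595), Sin3a KD replicate 1 (0.0742) or replicate 3 (0.0836), with untrended variances (0.0756) and with lane as a factor (0.119). The knockdowns were not called different for Prmt3 (adjusted p = 0.0835, or 0.0474 without NC replicate 3 and 0.0447 with only those groups in the fit). Prmt5 had 5303, 4936 and 4654 in NC, 4324, 4428 and 3894 in Hdac1/2 cKD and 5005, 5222 and 5803 in Sin3a KD. Its values in Hdac1/2 cKD were the lowest of the 3 groups, and the difference from Sin3a KD was called (log2 -0.34, SE 0.10, adjusted p = 0.0260) while that from NC was not (log2 -0.24, adjusted p = 0.118). The call was lost without any 1 of the Hdac1/2 cKD libraries (adjusted p of 0.0609, 0.0507 and 0.114 without replicates 1, 2 and 3) or Sin3a KD replicates 2 (0.0520) or 3 (0.105), and with untrended variances (0.107). Clns1a, which with Prmt5 methylates splicing proteins, was lower in Hdac1/2 cKD than in Sin3a KD (log2 -0.37, SE 0.10, adjusted p = 0.0223). Of the 5 arginine methylation cofactors it was the 1 called in that comparison, and Btg1, a binder of Prmt1, was the 1 that fell in Hdac1/2 cKD against NC (log2 -1.03, SE 0.23, adjusted p = 0.00885). The Clns1a call was lost without Hdac1/2 cKD replicates 1 (0.107) or 2 (0.0624) or Sin3a KD replicates 1 (0.0793) or 2 (0.0682), with untrended variances (0.0746) and with lane as a factor (0.235). The Btg1 call was lost with untrended variances (0.0554) and with lane as a factor (0.0787). Over all tested genes, 7.80% were called lower in Hdac1/2 cKD than in NC and 8.78% lower than in Sin3a KD.

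Of the 3 H4K20 methyltransferases 1 was called, lower in Sin3a KD, where 4.36% of all tested genes were called lower. Setd8, the enzyme of H4K20 monomethylation that cells need in S phase and mitosis, had 2613, 2159.8 and 3001 in NC, 2311, 2581 and 2381 in Hdac1/2 cKD and 1774, 2016 and 1833 in Sin3a KD. The Sin3a KD values all lay below NC (log2 -0.46, SE 0.12, adjusted p = 0.0367), while Hdac1/2 cKD lay within the NC range. The call was lost without NC replicates 1 (adjusted p = 0.0890) or 3 (0.108), any Hdac1/2 cKD library (0.0527, 0.0542 and 0.0527), or Sin3a KD replicates 1 (0.134) or 3 (0.119). It was also lost with equal totals (0.0686), untrended variances (0.133), only the compared groups in the fit (0.0814) and lane as a factor (0.148). The difference between the knockdowns was not called (log2 0.37, adjusted p = 0.0518), but was without NC replicates 2 (0.0215) or 3 (0.0241) and under 4 other alternatives (0.0139 to 0.0493).

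Setd4 and Prdm10 were the called members among the SET proteins of other or debated substrates (3 tested) and the PRDM family (8 tested). Both fell in Hdac1/2 cKD against NC, where 7.80% of all tested genes were called lower. Setd4 had 209, 332 and 285 in NC, 116, 158 and 174 in Hdac1/2 cKD and 257, 221 and 276 in Sin3a KD, with every Hdac1/2 cKD value the lowest (log2 -0.87, SE 0.24, adjusted p = 0.0231 against NC; log2 -0.76, adjusted p = 0.0403 against Sin3a KD). The call against NC was lost without NC replicates 2 (0.0681) or 3 (0.0515), Hdac1/2 cKD replicates 1 (0.0958) or 2 (0.0536), and with equal totals (0.0518). The call against Sin3a KD was lost without Hdac1/2 cKD replicates 1 (0.155) or 2 (0.0790) or any Sin3a KD library (0.115, 0.0558 and 0.127), with no filter (0.0574), equal totals (0.0527), untrended variances (0.0676) and lane as a factor (0.246). Prdm10, a zinc-finger transcription factor, had 166, 125 and 143 in NC, 64.7, 81.3 and 77.2 in Hdac1/2 cKD and 133, 104 and 120.1 in Sin3a KD, and its Hdac1/2 cKD values lay below all others (log2 -0.94, SE 0.26, adjusted p = 0.0239 against NC). That call was lost without NC replicate 1 (adjusted p = 0.0813) or any Hdac1/2 cKD library (0.0829, 0.0537 and 0.0595), with only the compared groups in the fit (0.0506) and with lane as a factor (0.127). Against Sin3a KD it was called with untrended variances (0.0389, against 0.0923). The other 7 tested PRDM genes were called in no comparison, with log2 changes against NC of -0.47 (Prdm9) to 0.85 (Prdm6) in Hdac1/2 cKD.

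The 4 other JmjC proteins were called nowhere by limma (2 at an unadjusted p below 0.05 in Sin3a KD against NC, and 0 in each other comparison). Jmjd6, the highest of them, a lysyl hydroxylase tied to splicing, had 1745, 1241 and 1553 in NC, 1267, 1164 and 1391 in Hdac1/2 cKD and 1709, 1373 and 1557 in Sin3a KD, with 95% intervals of -0.54 to 0.06 and -0.26 to 0.34 for the knockdowns against NC. The 2 at an unadjusted p below 0.05 were Jmjd8 and Jmjd4, named after their values were seen. In Sin3a KD all values of Jmjd8 lay below NC (log2 -0.87, adjusted p = 0.0776). All those of Jmjd4 lay above NC (log2 0.49, adjusted p = 0.121). Nsdhl was not called either, so the counts of called members are the same without it.

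**Figure D3:**
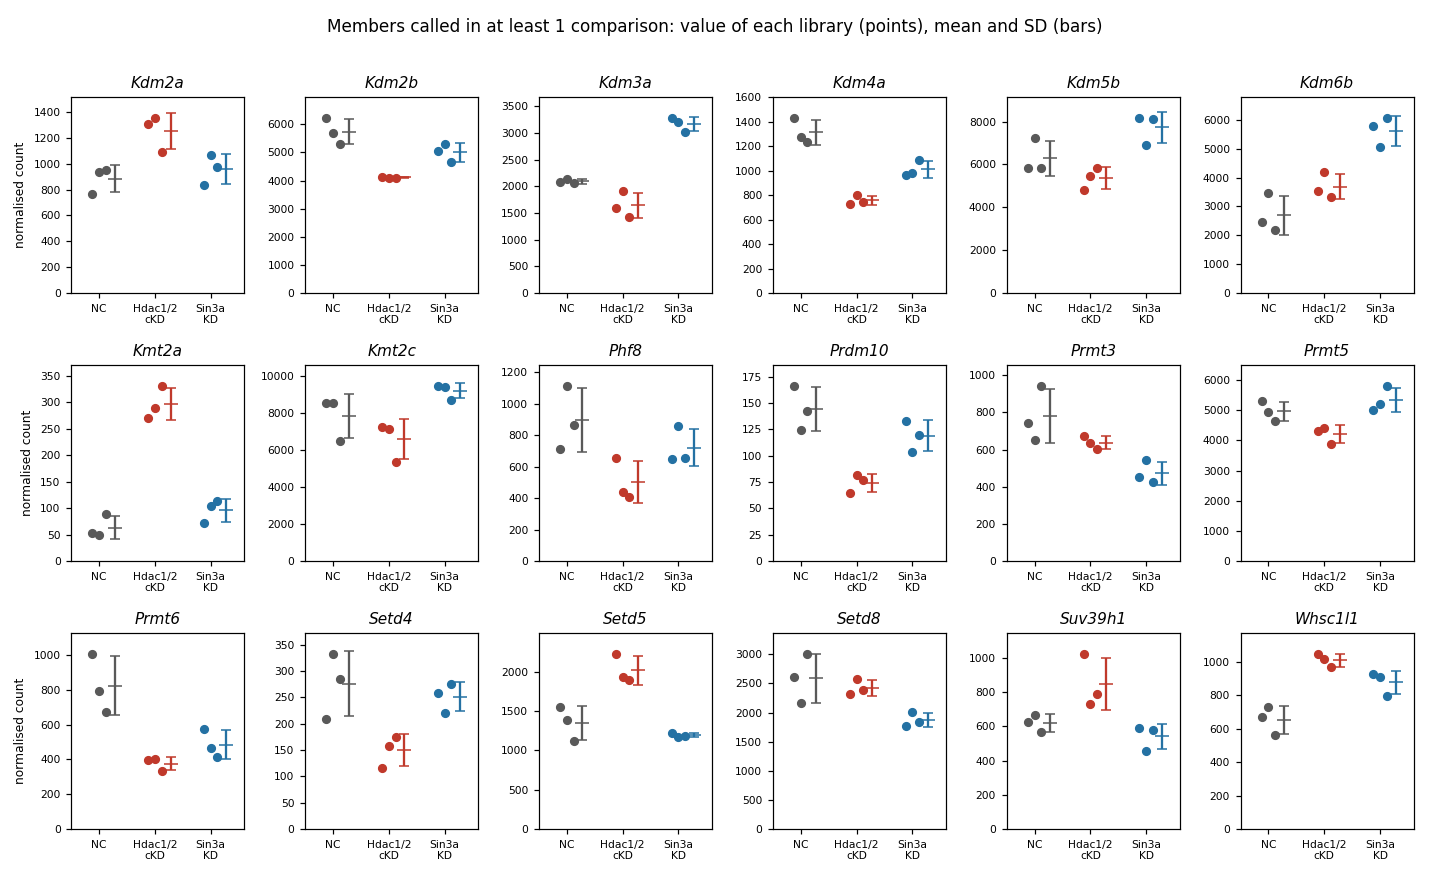
Normalised counts of the 18 members called in at least 1 comparison, 1 panel per gene with its own axis from 0; points are libraries and bars show mean and SD. Kmt2a stands apart in Hdac1/2 cKD (271 to 330.4 against at most 113 elsewhere), and Kdm3a lies below NC in Hdac1/2 cKD and above it in Sin3a KD.

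**Figure D4:**
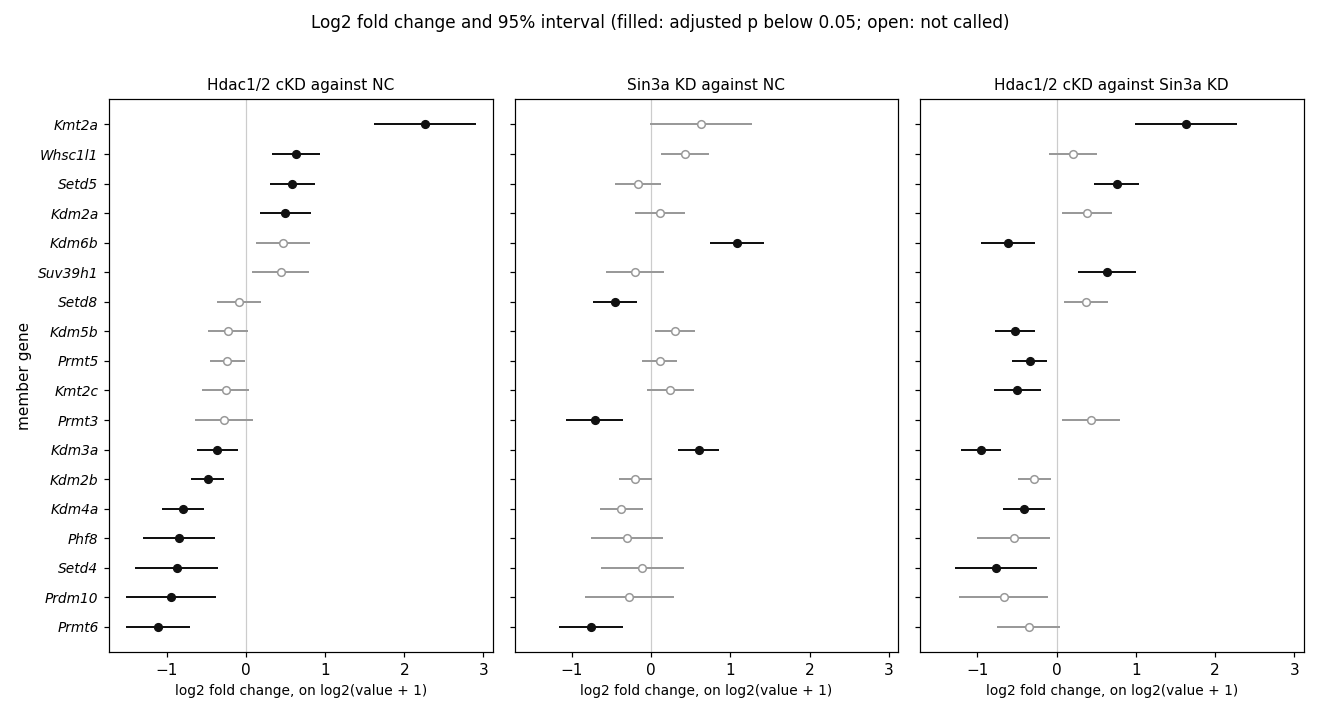
Log2 fold changes of the same 18 members in the 3 comparisons, with 95% intervals; filled points have an adjusted p below 0.05 and open points do not. Kmt2a is furthest right with Hdac1/2 cKD against NC (2.27), and Prmt6 is furthest left (-1.11).

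Within lanes that hold both groups the signs were kept. In Hdac1/2 cKD all 11 called members had the same sign in lane 2 (2 libraries against 1) and in lane 3 (1 against 1). In Sin3a KD all 5 had the same sign in lane 3 (2 against 1), and all 10 members called between the knockdowns did so in lane 3 (1 against 2). These libraries are part of the fits that made the calls, so the within-lane signs are no separate evidence. Of the 26 member calls in all, 9 were kept in every alternative fit: Kmt2a, Kdm4a, Prmt6, Setd5, Kdm2b and Whsc1l1 in Hdac1/2 cKD against NC, and Kdm3a, Kmt2a and Setd5 between the knockdowns. None of the 5 Sin3a KD calls against NC was among them. The share of all called genes kept in every alternative fit was not computed, so these counts have no background beside them. Over all tested genes, the Sin3a KD calls against NC went from 1062 to 36 without trended robust variances.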

How the data were processed

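Polyadenylated RNA of 9 libraries was sequenced. Per the submitters' processing notes, reads were counted with Salmon and normalised with DESeq2 (build GRCm38; versions and annotation: not given in the sources used here). Signal values deposited by the authors are thus gene-level normalised counts; 64.5% to 78.1% of low values lay within 0.1 of a whole step, so whole reads were not recovered. The labels record RFP and GFP mRNA added to each pool; no scaling to it was made. Of each library's total, 0.00543% to 0.00896% stood in 1 line with no gene name, which was left out.

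All 9 libraries were fitted together in limma 3.58.1 (R 4.3.3), with 1 mean per group, a pseudocount of 1, trended robust variances and 6 residual degrees of freedom. The fit was also run on simulated data with independent noise for each gene. Those data held no lane effect and no outlying library, so such effects were not covered. Exon bases, overlaps and coordinates come from GENCODE vM21, promoters from RefSeq. The members and lists were chosen with earlier results of these data known. Members called in any comparison were named; of groups without a call, up to 2 of the highest mean; of partner genes, up to 4 called per list. Members named for their level, interval or nearness to the threshold were chosen after their values were seen.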

Additional observations from a re-analysis of the deposited data

How the results depend on the processing

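Alternatives were a pseudocount of 10, no filter, a mean of at least 50 and libraries scaled to equal totals. Another had variances neither trended nor robust, which is named here untrended variances or no trended robust variances. The others were only the groups compared, a replicate block, lane as a factor and each library left out in turn. The partner genes were put through all of these alternatives after their values were seen. No named member or partner called under any setting reversed its direction. In Hdac1/2 cKD against NC, 2083 genes were called, and 1369 with untrended variances; 8 members were higher and 5 lower with equal totals, against 4 and 7. In Sin3a KD against NC, 1062 genes were called, but 36 with untrended variances, 611 with only the groups compared and 94 with lane as a factor. There limma called 0 members higher and 0 lower with untrended variances (7 and 5 at an unadjusted p below 0.05), and 1 higher and 0 lower with lane as a factor (11 and 5 unadjusted). Equal totals gave 4 members higher and 2 lower. The lane fit takes nothing from NC replicate 1 or Sin3a KD replicate 1, each the single library of its lane. Between the knockdowns, 2304 genes were called, and 1002 with lane as a factor; 2 members were lower with untrended variances and 6 higher with only the groups compared. Equal totals moved the median of all genes by 0.11, 0.09 and 0.02 (log2) and the share of calls that were higher from 50.02% to 67.2%, 45.2% to 63.5% and 49.2% to 52.4%, in the order of the comparisons above.

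With 1 library left out, the calls over all genes ran from 1271 to 2170, 337 to 1538 and 1426 to 2748 in the same order. Members called higher ran from 3 to 9, 2 to 4 and 2 to 5, and members called lower from 4 to 9, 0 to 4 and 3 to 9. The 0 arose without Sin3a KD replicate 3 (6 members lower at an unadjusted p below 0.05), and the highest counts of members higher against NC arose without NC replicate 2. Replicate numbers are shared by the groups. Deviations from the group means were correlated weakly at most between same-numbered libraries (r of -0.02 to 0.06). Other pairs between groups had r of -0.04 to 0.03. With 3 libraries a group, this cannot settle whether the numbers pair them. With a replicate block 2140, 1046 and 2372 genes were called, with 6, 2 and 3 members higher and 8, 3 and 9 lower. With 3 libraries a group and a deepest library of 16.9 M estimated reads, members of low level such as Setd7 and the PRDM genes have wide intervals, and a member that was not called can have changed.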
